A study of Ovis aries and Bos taurus with 10 samples.

Results

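The oocytes of the earliest growing follicles were profiled as 3 of the 10 arrays of this sheep series: PDO held oocytes of primordial follicles, PMO those of primary follicles and SECO those of secondary follicles. The arrays were chosen by their labels, and every statement on oocytes below rests on these 3 hybridizations. The cells came from ovaries of newborn Ovis aries lambs in their first day of life, which carried no treatment or genetic change in the labels, and were cut out of stained frozen sections by laser capture microdissection (LCM), in which a laser lifts chosen cells off a slide. A primordial follicle was an oocyte with flattened granulosa cells (GC), a primary follicle had 1 layer of cuboidal GC, and a secondary follicle had 2 layers. The RNA on each array was a pool over several lambs, more of them for the primary stage than for the others, and had passed 2 rounds of T7 amplification. The arrays were designed for cattle. The 3 GC arrays of the same stages (PDG, PMG and SECG) are given beside the oocyte values where they help to read them.

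With 1 pooled array per stage there is no replicate error for any value below, so no test was made and differences are described by their size alone. The values are MAS 5.0 signals on a linear scale, and a difference between stages is a difference of log2(signal + 20), in which 1 stands for a change of about 2-fold in a bright probe set. The constant of 20 makes the difference smaller for dim probe sets. A probe set was compared when it was among the brightest 35% on at least 1 of the 3 oocyte arrays, which meant a signal of at least 50.4 on PDO, 60.1 on PMO or 59.6 on SECO. Of 24016 probe sets 10978 (45.7%) were compared, 6065 of them bright on 3 arrays, 2110 on 2 and 2803 on 1. A gene was represented by its brightest compared probe set with 1 gene symbol, which gave 6018 genes. A fold is a ratio of plain signals, and it is given as a lower bound ("at least") where the lower signal lay under the limit of its array.

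Primordial follicles form the resting store of the ovary, and most of their oocytes wait there, arrested in the first meiotic division. On activation the GC turn cuboidal and divide while the oocyte starts to grow, lays down the zona pellucida, its glycoprotein coat, and fills with messenger RNA and proteins for the first divisions of the embryo. The growing oocyte is known for GDF9 and BMP15, growth factors through which it acts on the GC around it, and for proteins of the nuage, a cytoplasmic structure in which germ cells silence transposons.

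The oocyte label was first set against oocyte markers. The zona protein gene ZP3 gave 2822 on PDO, 2719.8 on PMO and 751 on SECO, against 778 on PDG, 1508 on PMG and 683 on SECG. It was thus bright on all oocyte arrays, but on SECO it was close to the GC array of the same stage. MAEL, a nuage protein that represses transposons, gave 290.1 on PDO, 411 on PMO and 407 on SECO, against 218 on PDG, 323 on PMG and 57.9 on SECG. STAG3, the meiotic subunit of cohesin, gave 430.1 on PDO, 297 on PMO and 824 on SECO, against 197 on PDG, 193 on PMG and 129 on SECG. Both kept SECO well above SECG. KIT, the receptor on oocytes for the ligand that GC make, gave 603 on PDO, 558 on PMO and 225 on SECO, against 319.5 on PDG, 354 on PMG and 241 on SECG, and so SECO did not exceed SECG. A second KIT probe set gave 93.2, 110.3 and 25.5, and another, dim one 29.3, 7.77 and 63.9. All 12 oocyte markers with a gene symbol on the array were compared. Summed over these, the signals came to 11519 on PDO, 11805 on PMO and 6040.5 on SECO, against 5077 on PDG, 7877 on PMG and 5352 on SECG. The sum was higher in oocytes at every stage, with the narrowest margin at the secondary stage. A wider check used 225 probe sets that were at least 2-fold higher on PDO than on PDG and on PMO than on PMG. On SECO 145 of them (64.4%) were higher than on SECG, beside 56.4% of all, and 41 (18.2%) at least 2-fold higher, where 11.5% of all probe sets compared were. Their median difference, SECO minus SECG, was 0.25, beside 0.11 over all. Of 200 probe sets at least 2-fold lower on PDO and PMO than on their GC arrays, 108 (54.0%) were lower on SECO than on SECG, beside 43.6% of all, and 34 (17.0%) at least 2-fold lower, where 6.93% of all were. Their median was -0.10.

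**Figure D1:**
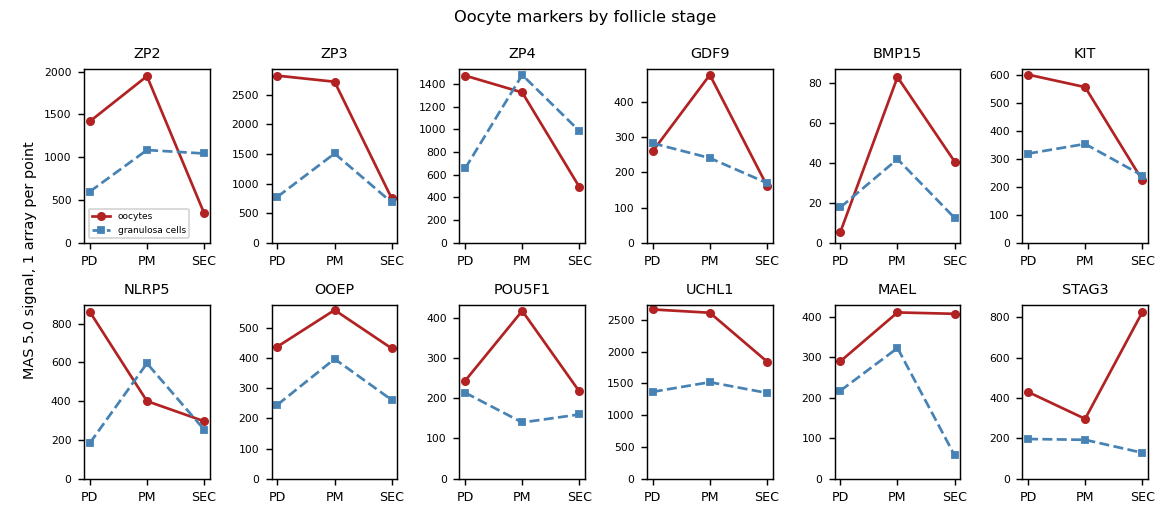
Signals of 12 oocyte markers (y axis, linear and from 0, MAS 5.0 signal) at the primordial (PD), primary (PM) and secondary (SEC) stage (x axis), with oocyte arrays as circles on solid lines and GC arrays as squares on dashed lines, 1 array per point. For ZP2, ZP4, GDF9 and KIT the oocyte value at the secondary stage is under the GC value, while MAEL and STAG3 stay far above it.

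RNA of other cells could be seen on the oocyte arrays and was not even among them. HBB, the beta chain of adult haemoglobin, gave 16.3 on PDO, 2.00 on PMO and 3838 on SECO, and the fetal chain gene HBG gave 67.9 on PDO, 6.64 on PMO and 575 on SECO. Both were bright on SECO and under the limit on PMO, and a second HBB probe set ran the same way with 2990 on SECO. Another HBB probe set stayed far dimmer, with 47.2 on PDO, 17.6 on PMO and 90.5 on SECO. On the GC arrays HBB gave 50.9 on PDG, 398 on PMG and 69.4 on SECG. Of the 10 red blood cell markers on the array 4 were compared, and the alpha chain gene HBA, ALAS2, AHSP and SLC4A1 lay under the limit on every oocyte array. The summed signal of the red blood cell list was 535 on PDO, 497 on PMO and 5175 on SECO. GC markers were low but present. INHBA, the activin A subunit, gave 64.1 on PDO, 109.6 on PMO and 334 on SECO, GATA4, a somatic transcription factor of the gonad, gave 82.4 on PDO, 101 on PMO and 229 on SECO, and FST, the activin-binding protein follistatin, gave 15.2 on PDO, 111 on PMO and 51.4 on SECO, where PDO and SECO lay under the limit. AMH, KITLG, FOXL2 and CYP19A1, genes known from GC, lay under the limit on every oocyte array, and on the GC arrays as well. The summed GC list came to 371 on PDO, 790.2 on PMO and 1078 on SECO, against 922 to 3059.8 on the GC arrays. Of 13 markers 6 were compared, all higher on SECO than on PDO. Over the limit were 3 of them on PDO, 6 on PMO and 5 on SECO, and markers that entered by a later array favour a rise from PDO. Leukocyte markers summed to 679, 871 and 1260.0 on PDO, PMO and SECO, with PTPRC, the common leukocyte antigen, under the limit on all of them. Stroma and matrix markers summed to 35819.7 on PDO, 23801 on PMO and 20784 on SECO. Much of this was 1 gene, MGP, and without it the sums were 19260.4, 6897 and 19734, lowest on PMO, as COL1A2 and COL3A1 were. Smooth muscle markers summed to 2806, 2053 and 2885, endothelial markers to 1345, 1205 and 1472, surface epithelium markers to 1169.5, 862 and 726 and markers of theca and steroidogenic cells to 547, 611 and 551. From PMO to SECO 5 of 12 oocyte markers were at least 2-fold lower and 1, STAG3, higher, where 12.7% of all genes were higher and 11.4% lower. Of the markers compared, 3 of 4 for red blood cells, 2 of 6 for GC, 4 of 14 for stroma and 3 of 10 for leukocytes were at least 2-fold higher, while none, none, 1 and 1 were lower. A marker could enter by SECO alone, which favours a rise to SECO. Over the limit on PMO and SECO were 1 and 4 red blood cell markers, 4 and 7 for leukocytes, 6 and 5 for GC and 13 and 12 for stroma. The shifts of these marker lists go with every difference that involves SECO below, and their part in it was not tested. A lower share of oocytes in a sample and less of an RNA per oocyte cannot be told apart on these arrays.

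**Figure D2:**
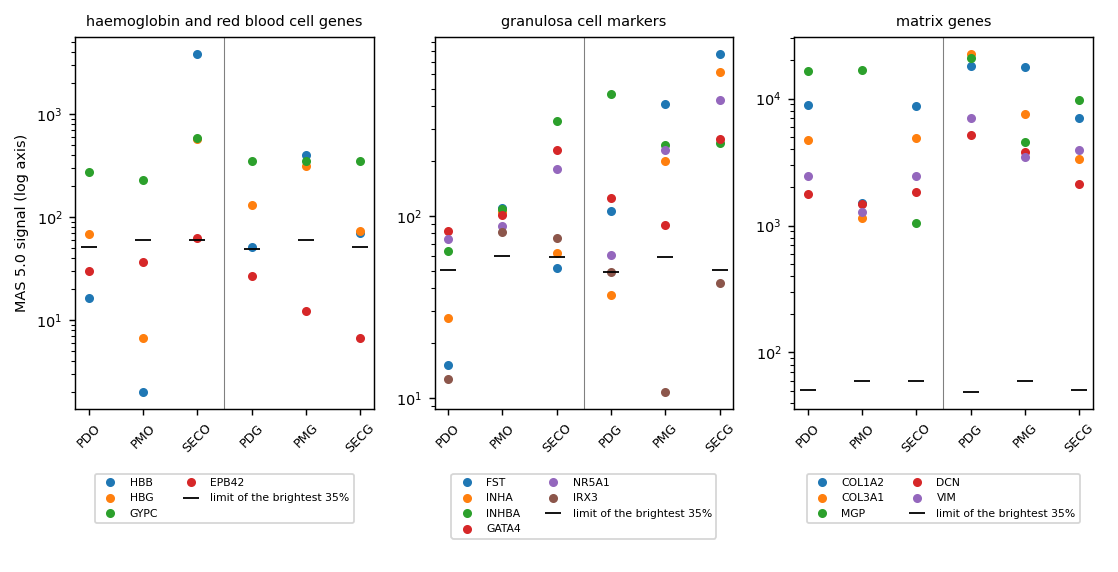
Signals of red blood cell, granulosa cell and matrix genes (y axis, log scale, MAS 5.0 signal) on the 3 oocyte and 3 GC arrays (x axis), 1 point per gene and array, with a bar at each array's limit of the brightest 35%. HBB stands at 3838 on SECO and at 2.00 on PMO, and of the oocyte arrays PMO has the lowest COL1A2 and COL3A1.

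Over the compared probe sets the log2 signals of PDO and PMO correlated at 0.90, PDO and SECO at 0.85 and PMO and SECO at 0.84. With the GC array of the same stage PDO correlated at 0.91, PMO at 0.87 and SECO at 0.89, which for PDO and SECO was higher than with either of the other oocyte arrays. These values share the array design and base composition and are descriptions. The 3′ probe set of the GAPDH control was 13.8 times its middle probe set on PDO, 19.8 times on PMO and 25.2 times on SECO. This orders the arrays by 1 ratio of 1 control. The paper's ratio to the probe set at the other end of GAPDH was not higher on PMO than on PDO. The part of these ratios in the stage differences was not tested.

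From PDO to PMO 1062 of 10978 probe sets (9.67%) were at least 2-fold higher and 785 (7.15%) at least 2-fold lower. From PMO to SECO 1426 (13.0%) were higher and 1323 (12.1%) lower, and from PDO to SECO 1556 (14.2%) were higher and 1145 (10.4%) lower. Over the 6018 genes the same shares were 7.48% and 6.70%, then 12.7% and 11.4%, then 13.3% and 11.1%, and these are the background for each gene list below. The balance of higher against lower depended on the scaling. With each array centred on its median, which moved the median difference of all probe sets by -0.18 from PDO to SECO and by -0.14 from PDO to PMO, 1087 were higher and 1579 lower from PDO to SECO, so that 40.8% of the changed probe sets were higher in place of 57.6%. From PDO to PMO that share went from 57.5% to 44.3%, and quantile normalization gave 48.9% and 47.5% for these comparisons. From PMO to SECO the share moved from 51.9% to 48.2% when centred.

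The steps differed most in bright probe sets. Among those with a signal of at least 500 on the brighter array, 146 of 1707 (8.55%) changed at least 2-fold from PDO to PMO, but 478 of 1788 (26.7%) did from PMO to SECO. The GC arrays gave 12.7% and 13.5% for the same steps and the same limit of 500. Among probe sets under 100 on both arrays 22.4% and 26.5% changed in oocytes. A second probe set of the same gene offers the nearest thing to a repeat measurement on these arrays, and 861 genes had one. Where the brightest probe set changed at least 2-fold, the second had the same sign for 58 of 98 genes (59.2%) from PDO to PMO, for 127 of 195 (65.1%) from PMO to SECO and for 150 of 211 (71.1%) from PDO to SECO. It changed at least 2-fold the same way for 25, 51 and 55 of them. Genes with a single probe set had no such check.

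The 2 steps rarely added up. At least 2-fold changes the same way in both were found for 21 probe sets that were higher and 14 that were lower, while 401 were lower at the first step and higher at the second and 326 the reverse. Both steps contain PMO, so a value that is off on PMO alone gives opposite steps. Counted over the whole course, 987 probe sets (8.99%) were higher and 771 (7.02%) lower with both steps the same way and at least 2-fold in all. Asking for at least 0.5 from each step left 337 (3.07%) and 228 (2.08%). Over genes these shares were 8.49% and 7.93%, and 2.74% and 2.41%. With the arrays centred on their medians the counts over the whole course were 643 higher and 1100 lower, so that 36.9% of them were higher in place of 56.1%, and 47.8% were after quantile normalization.

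**Figure D3:**
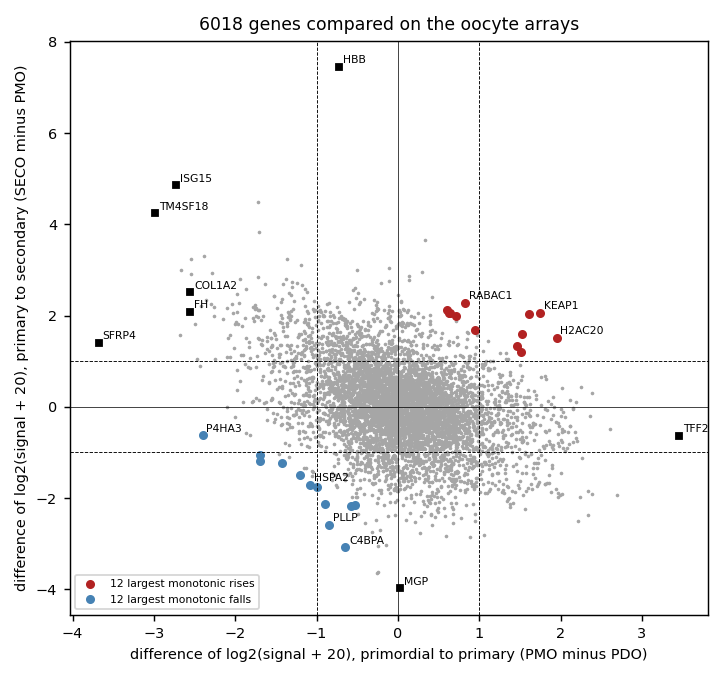
Each of the 6018 genes by its difference of log2(signal + 20) from primordial to primary (x axis) and from primary to secondary (y axis), with dashed lines at 1 and -1. The largest monotonic rises and falls are coloured, and genes with a large change at 1 step are black squares, such as HBB at 7.45 and MGP at -3.98 on the y axis.

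The 12 genes with the largest rises along the 3 stages, with at least 0.5 at each step, were dim in primordial oocytes. KEAP1, the adaptor that marks the stress regulator NRF2 for destruction, gave 15.8 on PDO, 100.3 on PMO and 483 on SECO. It climbed at each step, to a signal at least 9.58-fold higher, but its other probe sets followed less or not at all. A second gave 99.3, 64.7 and 94.1 and another 39.8, 49.3 and 92.7. H2AC20, a histone H2A gene, gave 83.9 on PDO, 382 on PMO and 1128 on SECO, which was 13.4-fold higher on SECO than on PDO, all signals being over the limits. CNOT6L, a deadenylase of the CCR4-NOT complex that removes maternal messenger RNA, gave 7.19 on PDO, 58.6 on PMO and 218 on SECO, or at least 4.32-fold higher. On the GC arrays CNOT6L gave 116 on PDG, 111 on PMG and 1.18 on SECG, so its highest oocyte signal fell at the stage of its lowest GC signal.

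Of the other genes of this group IP6K2 lay just over the limit on PDO and the rest under it. CCDC124 gave 2.12 on PDO, 47.7 on PMO and 258 on SECO, and RABAC1, a membrane protein that binds Rab GTPases, gave 10.2 on PDO, 33.5 on PMO and 239 on SECO. BCAP31, a chaperone of the endoplasmic reticulum membrane, gave 40.0 on PDO, 96.0 on PMO and 355 on SECO, and BOK, a BCL2 family member that promotes cell death, gave 10.4 on PDO, 66.8 on PMO and 179 on SECO. These 4 genes were under the limit on PDO and over it on SECO. IP6K2, an inositol hexakisphosphate kinase, gave 51.9 on PDO, 91.7 on PMO and 448 on SECO, but a second probe set gave 79.1, 33.2 and 71.9. SHFL, an interferon-induced inhibitor of ribosomal frameshifting, gave 21.7 on PDO, 95.4 on PMO and 270.2 on SECO, and KIAA2013 gave 12.6 on PDO, 30.5 on PMO and 189 on SECO. APOA1, the main protein of high-density lipoprotein, and CFD, complement factor D, reached 127 and 142 on SECO after signals under the limit on PDO and PMO. On the GC arrays 9 of the 12 genes were also at least 2-fold higher at the secondary than at the primordial stage, and 1, CNOT6L, was lower: KEAP1 gave 113 on PDG, 29.2 on PMG and 470.1 on SECG, CCDC124 39.2 on PDG, 31.4 on PMG and 156 on SECG and APOA1 59.3 on PDG, 37.3 on PMG and 466 on SECG.

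The 12 largest falls along the stages started from signals of 138 and more on PDO, where their choice required at least 100. PLLP, a tetraspan membrane protein also known as plasmolipin, gave 1195 on PDO, 657 on PMO and 93.0 on SECO, against 117 on PDG, 124 on PMG and 97.9 on SECG. The oocyte signal was high on PDO and PMO and reached the level of the GC arrays on SECO, 12.8-fold lower than on PDO. HSPA2, a heat shock protein of germ cells, gave 821 on PDO, 377 on PMO and 102 on SECO, or 8.08-fold lower, against 262 on PDG, 164 on PMG and 169.6 on SECG. C4BPA, the alpha chain of the complement regulator C4BP, gave 776 on PDO, 489 on PMO and 40.0 on SECO, or at least 13.0-fold lower, and its GC signals went the same way with 3684 on PDG, 250.3 on PMG and 30.3 on SECG. USP16, which takes ubiquitin off histone H2A, gave 3758 on PDO, 1381 on PMO and 576 on SECO, and it was 6.53-fold lower on SECO than on PDO.

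On the GC arrays 5 of the 12 genes were also at least 2-fold lower over the course and 1, MEF2C, was higher. Membrane and matrix genes made up part of the rest. KCNE1, a potassium channel subunit, gave 676 on PDO, 353 on PMO and 65.1 on SECO, and CLDN10, a tight junction protein, gave 1000.4 on PDO, 423 on PMO and 136 on SECO. P4HA3, a subunit of collagen prolyl 4-hydroxylase, gave 1671 on PDO, 300.3 on PMO and 188 on SECO, with most of its fall at the first step. The chemokine gene CCL26 gave 392 on PDO, 107 on PMO and 35.6 on SECO. EPAS1, a hypoxia-inducible transcription factor, gave 1808 on PDO, 1252 on PMO and 265 on SECO, while a second and much dimmer probe set gave 56.6, 71.3 and 103.8. NUDT4, a phosphohydrolase of inositol pyrophosphates, gave 514 on PDO, 146 on PMO and 59.3 on SECO, and a second probe set gave 54.3, 111.8 and 72.5. The second probe sets of EPAS1 and NUDT4 thus did not follow the brightest over the course. MEF2C, a transcription factor, gave 138 on PDO, 59.2 on PMO and 3.36 on SECO, while PDG was at 8.88 and SECG at 57.8. TBC1D14, a regulator of autophagy, gave 144 on PDO, 89.6 on PMO and 4.42 on SECO, and its second probe set 100.9, 48.9 and 60.0.

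**Figure D4:**
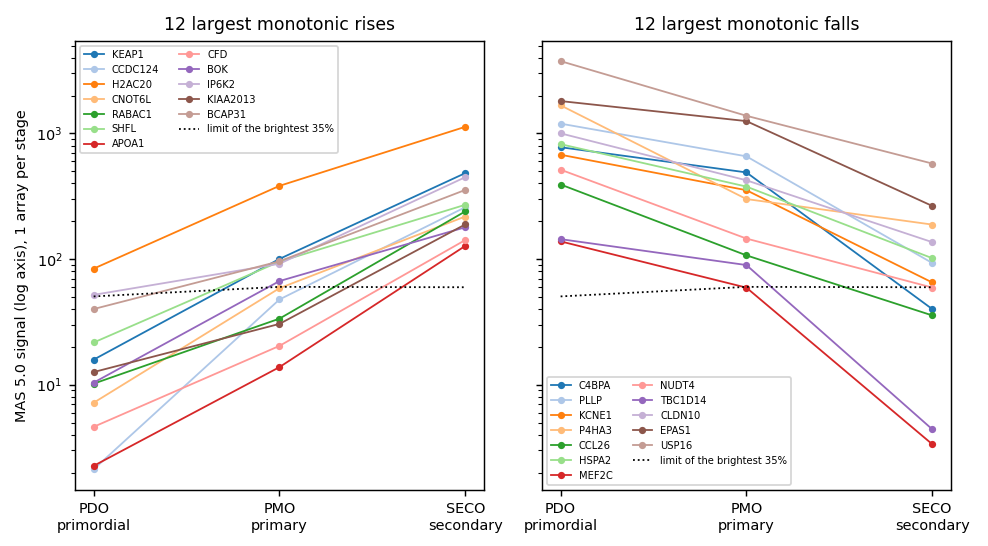
Signals (y axis, log scale, MAS 5.0 signal) of the 12 genes with the largest monotonic rises and the 12 with the largest monotonic falls on PDO, PMO and SECO (x axis), 1 array per stage, with a dotted line at the limit of the brightest 35%. Most of the rising genes start under the limit, as CCDC124 at 2.12. All of the falling genes start over 100, as their choice required, for example USP16 at 3758.

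At the first step, from primordial to primary, the largest rises were in genes that were under the limit on PDO. TFF2, a secreted trefoil peptide, gave 1.84 on PDO, 221 on PMO and 135 on SECO, THAP3 gave 22.8 on PDO, 257 on PMO and 52.4 on SECO, and MLXIP, a glucose-sensing transcription factor, gave 6.04 on PDO, 139 on PMO and 93.4 on SECO. TFF2 and MLXIP stayed over the limit on SECO and THAP3 did not. PLAC8B gave 10.1 on PDO, 137 on PMO and 173 on SECO and KLHL25, an adaptor of a ubiquitin ligase, gave 26.6 on PDO, 219 on PMO and 188 on SECO. FRMD3, PLA2G1B and MAP4K1 were over 100 on PMO, at 125, 116 and 106, and under the limit on both other arrays. All 8 differences lay between 2.24 and 3.46.

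The largest falls of the first step were mostly dips on PMO. FH, fumarase of the citric acid cycle, gave 4717 on PDO, 787 on PMO and 3407 on SECO, which was 5.99-fold lower on PMO and 4.33-fold higher again on SECO. COL1A2, a chain of type I collagen, gave 8988 on PDO, 1515 on PMO and 8749 on SECO, and a second probe set gave 4067, 969.8 and 4012. ISG15, a ubiquitin-like protein made under interferon, gave 146 on PDO, 5.10 on PMO and 708 on SECO, and TM4SF18 gave 165 on PDO, 3.38 on PMO and 423 on SECO. Both were under the limit on PMO alone. SNRNP70, a protein of the U1 splicing particle, gave 123 on PDO, 2.52 on PMO and 159 on SECO, and UQCRC1, a core subunit of respiratory complex III, gave 127 on PDO, 5.16 on PMO and 169.7 on SECO. The Wnt inhibitor SFRP4 gave 299 on PDO, 4.94 on PMO and 45.8 on SECO and the calcium-binding protein S100A4 gave 128 on PDO, 3.12 on PMO and 49.3 on SECO, both under the limit on PMO and on SECO. All 8 were higher on SECO than on PMO, and both differences contain the PMO value.

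At the second step, from primary to secondary, the largest falls were in genes over the limit on both earlier arrays. MGP, matrix Gla protein, which keeps tissue from calcifying, gave 16559 on PDO, 16904 on PMO and 1050.4 on SECO, 16.1-fold lower on SECO than on PMO. Of its other probe sets, 2 were at least 2-fold lower as well, with 535.1, 367.7 and 56.4 and with 227.7, 171.04 and 17.5, and the last gave 146.6, 132.5 and 129.2. On the GC arrays MGP gave 20862 on PDG, 4595 on PMG and 9823 on SECG. GALNT14, which starts O-linked glycosylation of proteins, gave 4878 on PDO, 4091 on PMO and 309 on SECO, or 13.2-fold lower, against 1124 on PDG, 791 on PMG and 549.6 on SECG. PPARGC1A, a coactivator that drives the making of mitochondria, gave 1275 on PDO, 1069.8 on PMO and 68.9 on SECO, or 15.5-fold lower, and its second probe set gave 82.2, 57.5 and 5.12. EFEMP1, a matrix glycoprotein, gave 1038 on PDO, 869 on PMO and 87.4 on SECO, and the peptidase DPP4 gave 671 on PDO, 604 on PMO and 56.2 on SECO, with their second probe sets lower on SECO than on PMO too. The antimicrobial peptide gene LEAP2, with 103 on PDO, 208 on PMO and 11.6 on SECO, and the actin-bundling protein FSCN1, with 88.6 on PDO, 144 on PMO and 3.17 on SECO, were under the limit on SECO.

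The largest rises of the second step, HBB and HBG among them, were in genes that were under the limit on PMO and over it on SECO, except for PSMD4. ISG15 and TM4SF18, above, were at least 11.8-fold and at least 7.04-fold higher on SECO than on PMO. NEFL, a neurofilament protein, gave 68.3 on PDO, 7.10 on PMO and 366 on SECO. PPP1R12C, a regulator of myosin phosphatase, gave 3.96 on PDO, 10.1 on PMO and 357 on SECO, and the receptor tyrosine kinase TYRO3 gave 110.1 on PDO, 4.92 on PMO and 226 on SECO. PSMD4, the ubiquitin receptor of the proteasome, gave 723 on PDO, 269 on PMO and 2726 on SECO, and its second probe set gave 144.4, 24.4 and 754.3. It was 10.1-fold higher on SECO than on PMO, and SECG, at 1193, was also higher than PMG, at 342.

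Among the genes of the oocyte's own coat and signals, zona genes stayed high to the primary stage. ZP2, which binds sperm, gave 1418 on PDO, 1946 on PMO and 348 on SECO, and ZP4 gave 1475 on PDO, 1327 on PMO and 493 on SECO. With ZP3, all were at least 2-fold lower on SECO than on PMO, at -2.42, -1.39 and -1.83 on the log2 scale. GDF9, which drives GC growth, gave 259 on PDO, 476 on PMO and 162 on SECO, highest on PMO. BMP15, its partner, gave 5.40 on PDO, 82.8 on PMO and 40.6 on SECO, over the limit on PMO alone. Of the 6 genes of this list compared, none was at least 2-fold higher from PMO to SECO and 4 were lower, with a median of -1.42 beside 0.02 over all genes. The sum of the red blood cell list was 5175 on SECO and that of the GC list 1078, against 497 and 790.2 on PMO, and their part in this result was not tested.

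Nuage and meiosis genes had members higher on SECO. Beside MAEL, of which the other 2 probe sets gave 268.6, 266.1 and 303.3 and 125.0, 122.9 and 165.0, the nuage protein ASZ1 gave 44.8 on PDO, 34.0 on PMO and 189 on SECO and the tudor protein TDRD7 gave 569 on PDO, 249.7 on PMO and 705 on SECO. TDRD7 dipped on PMO by its brightest probe set, and its second gave 20.7, 84.2 and 80.8. BOLL, a germ cell RNA-binding protein, reached 86.1 on SECO from 5.76 on PDO. GTSF1, a partner of piRNA proteins, was at least 2-fold lower over the course, with 252 on PDO, 329.9 on PMO and 95.1 on SECO. Of 7 nuage genes 2 were at least 2-fold higher and 1 lower from PDO to SECO, with a median of 0.30. Of all genes 13.3% were higher and 11.1% lower. Over the limit were 5 of the 7 on PDO, 5 on PMO and 7 on SECO. The higher ones, ASZ1 and BOLL, were under it on PDO and entered by SECO, which favours a rise. Of the 6 meiosis and chromosome axis genes compared, all were higher on SECO than on PDO, with a median of 0.70 beside 0.07 over all genes. Of these genes 4 were over the limit on all 3 arrays, and the others could enter by a single bright array. From PMO to SECO 2 were at least 2-fold higher and 1 lower. The lower one, SMC1A, changed by 2.33 from PDO to PMO and by -1.85 from PMO to SECO on the log2 scale. SMC3, a cohesin subunit, gave 77.4 on PDO, 150.2 on PMO and 216 on SECO, SYCP3, of the synaptonemal complex, gave 24.0 on PDO, 19.6 on PMO and 69.6 on SECO, and STAG3 had its highest signal on SECO. The other STAG3 probe sets gave 52.6, 132.8 and 72.5 and 18.6, 68.6 and 103.7, also higher on SECO than on PDO.

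Transcripts stored for the embryo had members higher and lower, at shares near those of all genes. NLRP5, known as MATER and needed for the first cleavages, gave 861 on PDO, 401 on PMO and 297 on SECO, 2.90-fold lower over the course. MOS, the kinase that holds the egg in meiotic arrest, gave 335 on PDO, 422 on PMO and 80.4 on SECO, 4.16-fold lower over the course. OOEP, a partner of NLRP5, gave 438 on PDO, 559 on PMO and 432 on SECO, and UCHL1, an abundant deubiquitinase of the egg, gave 2664 on PDO, 2612 on PMO and 1844 on SECO. TRIM28, a corepressor that keeps imprints in the embryo, was at 142 on SECO and under the limit on both earlier arrays. Over the 18 genes of the list, 2 (11.1%) were at least 2-fold higher and 2 (11.1%) lower from PDO to SECO. The shares over all genes were close to these, with 13.3% higher and 11.1% lower. In the machinery that stores, tails and degrades messenger RNA, 4 of 31 genes (12.9%) were higher and 1 (3.23%) lower. Beside CNOT6L these were CNOT7, another deadenylase, with 106 on PDO, 195 on PMO and 244 on SECO, the poly(A) polymerase PAPOLA with 94.4 on PDO, 110.1 on PMO and 239 on SECO and LSM14A, a protein of storage granules, with 92.3 on PDO, 246 on PMO and 247 on SECO. CNOT10, a subunit of the same deadenylase complex, was lower, with 374 on PDO, 291 on PMO and 121 on SECO.

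Several BMP genes, through which oocyte and GC signal to each other, were under the limit in primordial oocytes. Of 20 BMP, TGF-beta and activin genes compared, 6 were at least 2-fold higher from PDO to PMO and none lower, where 7.48% and 6.70% of all genes were. From PDO to SECO 8 were higher and 1 lower, beside 13.3% and 11.1% of all genes. Of the 20 genes 11 were over the limit on all 3 arrays. Genes under it on PDO entered by a brighter later array, which favours rises in these counts. BMPR2, the receptor of BMP15, gave 5.08 on PDO, 81.4 on PMO and 52.9 on SECO, and SMAD5, which carries the signal of BMP receptors, gave 3.57 on PDO, 36.8 on PMO and 62.6 on SECO. BMP7 gave 15.7 on PDO, 9.84 on PMO and 126 on SECO. BMP15, BMPR2, SMAD5, FST and INHA were all under the limit on PDO, and FST and INHA stood on the GC marker list. SMAD2, which carries activin and GDF9 signals, gave 826 on PDO, 808 on PMO and 519.8 on SECO, and TGFB2, a transforming growth factor, gave 60.9 on PDO, 57.3 on PMO and 10.5 on SECO, the only member at least 2-fold lower over the course. In the KIT, PI3K and mTOR group 1 of 18 genes was higher over the course and 3 were lower. The lower ones were KIT, AKT1S1, an inhibitor of mTOR complex 1 with 171 on PDO, 185 on PMO and 16.5 on SECO, and the phosphatase INPP5D with 59.2 on PDO, 20.8 on PMO and 6.07 on SECO. PRKAB1, a subunit of the energy sensor AMPK, was the higher one, with 12.1 on PDO, 65.6 on PMO and 47.4 on SECO.

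Every one of the 63 cytosolic ribosomal protein genes compared was over the limit on all 3 oocyte arrays. Of these 7 (11.1%) were at least 2-fold higher from PDO to SECO and none was lower, with a median of 0.28. Of all genes 13.3% were higher and 11.1% lower. RPS29 gave 4067 on PDO, 9655 on PMO and 16025 on SECO, RPL36A gave 1221 on PDO, 2096 on PMO and 3666 on SECO and RPL13 gave 1092 on PDO, 1465 on PMO and 4728 on SECO. At the other end RPS28 gave 357 on PDO, 294 on PMO and 199 on SECO. Of 41 translation factors 9 were higher from PMO to SECO and none lower, beside 12.7% and 11.4% of all genes. EIF4G1, the scaffold of the cap-binding complex, gave 69.8 on PDO, 77.1 on PMO and 389.7 on SECO, EIF4H, a helper of the initiation helicase, gave 273 on PDO, 299 on PMO and 859 on SECO, and EIF1AX, an initiation factor, gave 2937 on PDO, 3192 on PMO and 8734 on SECO. All 3 rose at the second step alone. Among nucleolus and ribosome biogenesis genes 1 of 52 (1.92%) was higher and 7 (13.5%) were lower from PDO to SECO, beside 13.3% and 11.1% of all genes. Of the lower ones POLR1H, a subunit of RNA polymerase I, gave 1295 on PDO, 615 on PMO and 215 on SECO, and EXOSC10, a nuclease of the RNA exosome, gave 1737 on PDO, 1091 on PMO and 382 on SECO.

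Mitochondrial ribosomal protein genes were lower more often than higher. Of 62 genes 6 were at least 2-fold higher and 15 lower from PDO to SECO, with a median of -0.34, where 13.3% and 11.1% of all genes were. Over the limit were 57 of them on PDO, 51 on PMO and 50 on SECO, and genes that entered by PDO favour a fall. MRPL16 gave 6033 on PDO, 1632 on PMO and 1096 on SECO and MRPL37 gave 1447 on PDO, 847 on PMO and 243 on SECO, while MRPL41 gave 15.8 on PDO, 26.9 on PMO and 168 on SECO and MRPL23 gave 160.1 on PDO, 232 on PMO and 591 on SECO. Another MRPL23 probe set gave 54.6, 8.26 and 46.1. The lower genes were bright on PDO, and MRPL41 was under the limit there. Of 75 subunits of the respiratory chain 7 were higher and 9 lower. NDUFB6, of complex I, gave 1749 on PDO, 2443 on PMO and 491 on SECO, NDUFA5, also of complex I, gave 1355 on PDO, 1236 on PMO and 424 on SECO, and ATP5F1B, of ATP synthase, gave 838 on PDO, 984 on PMO and 2557 on SECO. Glycolysis and pentose phosphate genes had 4 of 24 higher and none lower, with a median of 0.40, and GC gave 0.54 for the same genes. PGK1, phosphoglycerate kinase, gave 354 on PDO, 352 on PMO and 749 on SECO, TKTL1, a transketolase-like enzyme, gave 384 on PDO, 341 on PMO and 918 on SECO, and the glucose transporter SLC2A1 gave 6.96 on PDO, 66.0 on PMO and 90.1 on SECO.

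The secretory pathway, which the oocyte uses for its zona and growth factors, had 14 of 59 genes higher and 4 lower from PDO to SECO, beside 13.3% and 11.1% of all genes. SEC61B, of the translocation channel, gave 567 on PDO, 1156 on PMO and 1609 on SECO, COPE, of the COPI coat, gave 91.7 on PDO, 90.0 on PMO and 356 on SECO, and PDIA4, a protein disulfide isomerase, gave 9.58 on PDO, 61.5 on PMO and 64.4 on SECO. SRP68, of the signal recognition particle, and SSR3, of the translocon, were lower, with 1591 on PDO, 1479.8 on PMO and 336 on SECO and 721 on PDO, 519 on PMO and 212 on SECO. Of 24 sterol and fatty acid genes 4 were higher and 3 lower. FDPS, which makes farnesyl diphosphate, gave 1709 on PDO, 1159.5 on PMO and 368 on SECO, and FADS2, a fatty acid desaturase, gave 13.2 on PDO, 51.7 on PMO and 174 on SECO.

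Cell cycle and replication genes had negative medians at both steps, -0.26 and -0.17. Of 49 compared, 3 were at least 2-fold higher and 13 (26.5%) lower from PDO to SECO, with a median of -0.37. Of all genes 11.1% were lower. Over the limit were 46 of the 49 on PDO, 42 on PMO and 42 on SECO, and genes that entered by PDO favour a fall. CCNB2, a cyclin of mitosis, gave 1009.6 on PDO, 1265 on PMO and 239 on SECO, and TYMS, which makes thymidylate for DNA, gave 138 on PDO, 111 on PMO and 3.36 on SECO. CKS1B, which binds cyclin-dependent kinases, gave 1877 on PDO, 1186 on PMO and 377 on SECO, and RFC5, of the clamp loader of replication, gave 1368 on PDO, 527 on PMO and 286 on SECO. These genes were over the limit on PDO and lowest on SECO. CDK4 and its inhibitor CDKN1A were higher, with 277 on PDO, 346 on PMO and 749.8 on SECO and 79.0 on PDO, 168 on PMO and 204 on SECO. In GC the median of the list was -0.11 over the same course.

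Nuclear RNA and chromatin genes had members at each end. Among splicing factors 6 of 64 (9.38%) were higher and 8 (12.5%) lower from PDO to SECO, near the 13.3% and 11.1% of all genes. HNRNPM gave 571 on PDO, 593 on PMO and 1915 on SECO and PRPF8, the core of the spliceosome, gave 571 on PDO, 931 on PMO and 1615 on SECO, while SNRPG, a small Sm protein, gave 2219 on PDO, 1989 on PMO and 629 on SECO, and SF3A3, of the U2 particle, gave 534 on PDO, 463 on PMO and 194 on SECO. Of 55 chromatin modifiers 8 (14.5%) were higher and 3 (5.45%) lower. The remodeller CHD4 gave 783 on PDO, 1341 on PMO and 2193 on SECO and HMGA1, which bends DNA, gave 55.4 on PDO, 90.0 on PMO and 318 on SECO, while KAT8, an acetylase of histone H4, gave 437 on PDO, 319 on PMO and 157 on SECO. SIRT7, a nucleolar deacetylase, gave 131 on PDO, 112 on PMO and 67.5 on SECO. Of 38 genes of nuclear pore and transport 5 (13.2%) were higher and 5 (13.2%) lower, again near the shares of all genes. KPNA7, an importin of oocytes and embryos, gave 1602 on PDO, 1378 on PMO and 374 on SECO, 4.28-fold lower on SECO than on PDO, and its GC signals were 633 on PDG, 698 on PMG and 802 on SECG.

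Proteasome and chaperone genes also had members at each end. PSMB1, PSMB7 and PSMB2, of the proteasome core, were lower on SECO, with 1767 on PDO, 842 on PMO and 306 on SECO, then 2423 on PDO, 1553 on PMO and 549 on SECO and then 2835 on PDO, 2587 on PMO and 990.1 on SECO. Of 50 genes of this list 2 were higher and 6 lower over the course, while from PMO to SECO 10 were higher and 7 lower. Heat shock proteins and chaperonins had 8 of 36 higher and none lower from PMO to SECO, and 6 higher and 1 lower over the course. For all genes these shares were 12.7% and 11.4%, then 13.3% and 11.1%. HSP90AA1, the inducible HSP90, gave 647 on PDO, 688 on PMO and 2359 on SECO, but its second probe set gave 523, 721 and 511. HSPB1, a small heat shock protein, gave 92.7 on PDO, 289.5 on PMO and 356 on SECO, and DNAJC7, a co-chaperone, gave 1689 on PDO, 1431 on PMO and 4434 on SECO.

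Of 36 immediate early and stress genes compared, 7 were at least 2-fold higher from PDO to SECO and none at least 2-fold lower, with a median of 0.44. Over the limit were 27 of them on PDO, 30 on PMO and 34 on SECO. Genes under it on PDO entered by a brighter later array, which favours rises in these counts. From PMO to SECO 6 were higher and 1 lower. For all genes these shares were 13.3% and 11.1%, then 12.7% and 11.4%. EGR1 gave 153 on PDO, 392 on PMO and 919 on SECO, FOS gave 17.4 on PDO, 47.3 on PMO and 191 on SECO and JUN gave 266 on PDO, 357 on PMO and 1308 on SECO, all transcription factors that cells switch on within minutes. The brightest probe sets of these 3 were higher at each step. The second EGR1 probe set gave 43.0, 70.9 and 9.91, and other JUN probe sets gave 131.2, 258.8 and 233.6 and 128.5, 80.8 and 164.8. MT1A, a metallothionein, gave 5.09 on PDO, 67.6 on PMO and 121 on SECO. In GC EGR1 gave 468 on PDG, 568 on PMG and 532 on SECG, FOS 65.2 on PDG, 22.5 on PMG and 44.7 on SECG and JUN 485 on PDG, 601 on PMG and 1673 on SECG.

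Adhesion and junction genes were lower where they changed at the second step, with none of 23 at least 2-fold higher and 6 lower from PMO to SECO. Of all genes 12.7% were higher and 11.4% lower at this step. Over the limit were 22 of the 23 on PMO and 17 on SECO, which favours falls at this step. CLDN11, a tight junction protein, gave 2816 on PDO, 2424 on PMO and 356 on SECO, CLDN3, another, gave 83.7 on PDO, 63.8 on PMO and 5.99 on SECO, and CD9, a membrane protein of the egg needed for sperm fusion, gave 172 on PDO, 114 on PMO and 31.2 on SECO. CTNNB1, beta-catenin, was higher over the course, with 308 on PDO, 473 on PMO and 796 on SECO. In the actin cytoskeleton list 6 of 36 genes were higher and 3 lower over the course. For this and the lists that follow, 13.3% of all genes were higher and 11.1% lower. ARPC1B, of the Arp2/3 complex, gave 13.0 on PDO, 44.8 on PMO and 173 on SECO, and EZR, which ties membrane to actin, gave 1039 on PDO, 1222 on PMO and 444 on SECO. Among 33 microtubule and motor genes 1 was higher and 3 were lower. MAPRE2, a plus-end binding protein, gave 865 on PDO, 604 on PMO and 159 on SECO, and the tubulin gene TUBB gave 136 on PDO, 143 on PMO and 566 on SECO. Apoptosis regulators had 3 of 24 higher, BOK among them, and 2 lower. Of 33 lysosome genes 3 were higher and 5 lower, among them CTSZ, a lysosomal protease, with 1277 on PDO, 641 on PMO and 413 on SECO. Of 14 axon guidance genes, 2 were higher and 2 lower, ROBO1, a receptor for Slit proteins, with 10.8 on PDO, 37.1 on PMO and 103 on SECO among the former and NTN4, a netrin, with 161 on PDO, 90.6 on PMO and 36.1 on SECO among the latter.

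Centring the arrays lowers every gene by the same amount from PDO to SECO, so it turns the sign of any list median just over 0 without moving the list among the others. Quantile normalization does not move all genes alike, and under it the medians of the maternal effect, nucleolus, oxidative phosphorylation, microtubule and apoptosis lists from PDO to SECO changed sign.

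**Figure D5:**
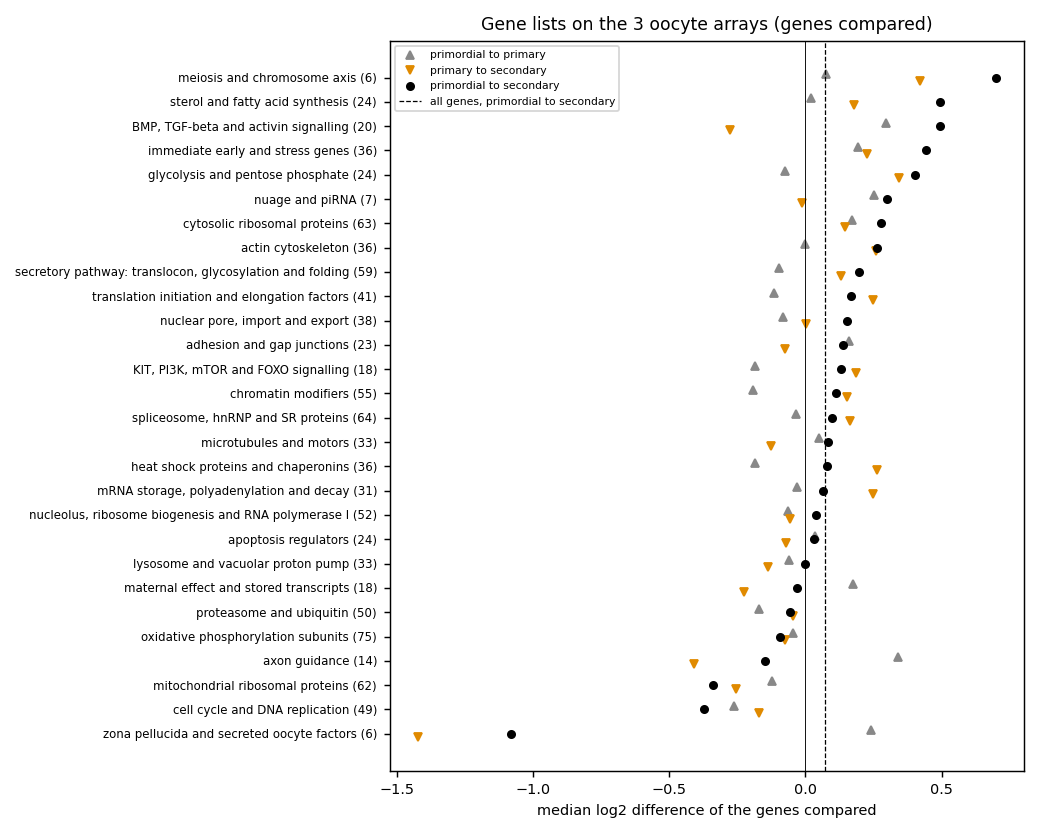
Median difference of log2(signal + 20) (x axis) of the compared genes of each functional list (y axis, number of genes in brackets) for each step and the whole course on the oocyte arrays, with a dashed line at the median of all genes over the course. The zona list lies at -1.08 over the course and meiosis genes at 0.70, both from 6 genes, and every other list lies between -0.37 and 0.50. Several medians near 0 change sign under other scalings.

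The GC arrays took no part in choosing the oocyte changes and share no array with them. Of the 1556 probe sets at least 2-fold higher from PDO to SECO, 350 (22.5%) were also at least 2-fold higher from PDG to SECG, where 9.20% of all compared probe sets were, and 104 (6.68%) were at least 2-fold lower. Of the 1145 that were lower, 184 (16.1%) were lower in GC as well, where 7.87% of all were, and 61 (5.33%) were higher. At each step the shares were smaller: 16.0% and 15.7% of the probe sets higher and lower from PDO to PMO moved alike in GC, where 7.65% of all moved each way. From PMO to SECO the shares were 17.0% and 13.5%, beside 8.87% and 8.45%. Most changes seen in oocytes thus stayed under 2-fold in GC or ran the other way. Both cell types of a stage touch each other in the follicle, so RNA of one on the array of the other and a change in both cannot be told apart.

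Of the genes that the study also measured by PCR, not analysed here, FST, GDF9, BMP15, MAEL, NLRP5, GATA4 and SIRT7 are given above. By that PCR, which included small antral follicles, the paper reported significant rises of SIRT7, MAEL and BMP15 with follicle stage. A significant rise was reported for FST too, whose pattern the paper described in GC. It also reported significant stage differences for NLRP5 and GDF9. On the oocyte arrays SIRT7, NLRP5 and GDF9 were lowest on SECO, and MAEL was higher on SECO than on PDO. BMP15 was also higher on SECO than on PDO, but it was highest on PMO and over the limit there alone. LAS1L, a factor of ribosome biogenesis, gave 169 on PDO, 186 on PMO and 205 on SECO, and PHGDH, the first enzyme of serine synthesis, gave 84.3 on PDO, 236 on PMO and 159 on SECO. Of its reference genes ACTB gave 73.7 on PDO, 133 on PMO and 129.8 on SECO, and RPL19 gave 7796 on PDO, 8349.9 on PMO and 10422 on SECO with a second probe set at 69.1, 167.8 and 132.5.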

How the data were processed

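Signals of 3 oocyte arrays were compared (1 pooled sample per stage), with 3 granulosa cell arrays beside them. The authors read the arrays with MAS 5.0 in GCOS and deposited linear intensity values, scaled to 100 and not normalized between arrays. The version of GCOS is not given in the sources used here. The 112 control probe sets were left out. Of the other 24016 probe sets 13292 have 1 gene symbol in the platform annotation, 86 several and 10638 none.

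A constant of 20 was added, log2 was taken and arrays were subtracted in Python 3.11.15 with pandas 2.3.3 and numpy 2.4.6, figures were drawn with matplotlib 3.10.9 and the calculation was tested on simulated data. A change was counted from a log2 difference of 1. Since each stage is 1 array, no test was made, and the number of arrays limits the precision. Named genes are the 12 largest rises and falls over both steps (each step at least 0.5), the 8 largest of each step, all with a signal of at least 100 on the brighter array, up to 4 members each way of each of 37 gene lists, cell type markers and the genes of the study's PCR. The members and lists were chosen with earlier results of these data known. Alternatives were the constant, a floor, the scaling, the filter and the mean of a gene's probe sets. Sequences were not analysed here.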

Additional observations from a re-analysis of the deposited data

Results flagged for a closer look

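A signal outside the main measurement appeared among the control probe sets: a pair of controls on the array, for which no gene name was at hand, gave 1077 and 2554 on SECO and at most 17.2 and 16.6 on the other oocyte arrays, the GC arrays and 1 array of fetal sheep ovary. The pair took no part in the comparisons, and where its signal comes from was not tested.

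A few genes of the largest changes went at least 2-fold one way in oocytes and at least 2-fold the other way in GC from the primordial to the secondary stage, and these differences were not tested. CNOT6L was at 3.13 in oocytes and -2.68 in GC on the log2 scale, and PLAC8B at 2.68 and -2.92. ISG15 was at 2.13 and -2.14, and TM4SF18 at 1.26 and -2.09. MEF2C was at -2.76 in oocytes and 1.43 in GC.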

How the results depend on the processing

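No paired analysis was possible because each stage has 1 array, and for the same reason no array could be left out of a stage. The numbers of probe sets at least 2-fold higher or lower held within 1.5 times in 49 of 80 planned recounts and in all 10 recounts added after the data were seen, which left out the genes of the other cell type marker lists or kept SECO out of the filter (965 higher and 725 lower from PDO to PMO). With a constant of 1 there were 1657 higher and 1204 lower from PDO to PMO. With a constant of 50 there were 456 and 333 from PDO to PMO, 841 and 789 from PMO to SECO, 851 and 700 from PDO to SECO, and 626 monotonic rises. Centring left 643 monotonic rises. With the brightest 25% there were 540 and 484 from PDO to PMO, 939 and 877 from PMO to SECO, and 1003 higher from PDO to SECO. With the brightest 45% there were 1645 higher from PDO to PMO. With probe sets bright on all 3 arrays there were 194 and 206 from PDO to PMO, 456 and 455 from PMO to SECO, 508 and 572 from PDO to SECO, and 388 and 443 monotonic. With no filter there were 2357 and 1379, 2514 and 2523, 2722 and 1728 in the same order, and 1799 monotonic rises. A filter changes the number of probe sets compared and the constant the weight of dim ones.

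Of the changes of named genes, 9 of 3936 recomputed values had the other sign, in each case because other probe sets then stood for the gene. With probe sets bright on all 3 arrays KEAP1 went to -0.49 from PDO to PMO and -0.064 from PDO to SECO, and NUDT4 to 0.83 and 0.32. With the brightest 45% ERG, an endothelial marker, went to 1.48 from PDO to PMO and 1.42 from PDO to SECO. By the mean of its probe sets TDRD7 went to 0.11 and PIK3CA, a PI3K subunit, to 0.31 from PDO to PMO, and EGR1 to -0.21 from PMO to SECO. The median of the endothelial marker list from PDO to SECO went to 0.40 with probe sets bright on all 3 arrays, from -0.62. Quantile normalization kept every count within 1.5 times.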
